A study of Mus musculus with 18 samples.

Results

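Acute-phase plasma proteins are secreted by hepatocytes, and their genes are the classic hepatic response to infection. The 10 genes described here were picked by symbol, with earlier results of these data known. They are Orm1, Orm2, Orm3, Hp, Hpx, Apcs, Itih3, Itih4, Lbp and Fgl1. All 10 were among the 21441 genes of the liver table and of the macrophage table. In the liver, all 10 were well above the filter of a mean FPKM over 1 (fragments per kilobase of transcript, scaled to library depth). In RAW264.7 macrophages, only Orm1, Hp and Hpx passed it.

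As background, bacterial lipopolysaccharide (LPS) makes macrophages release IL-6 and IL-1. IL-6 acts on hepatocytes through JAK kinases and STAT3, IL-1 acts through NF-kB, and C/EBP factors join both at the promoters of these genes. Some of the products bind haemoglobin, heme, lipids or bacterial products in plasma, and plasma levels of several are measured as signs of inflammation.

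Male wild-type C57BL/6 mice formed 3 groups. Control mice received saline, LPS mice received 10 mg/kg LPS by intraperitoneal injection, and LPS+MIC-1 mice were given MIC-1 by gavage (80 mg/kg, in DMSO) over 3 days ahead of the same LPS injection. The paper describes gavage with either MIC-1 or vehicle ahead of the injections, and names its control group a DMSO vehicle control. MIC-1 is moringa isothiocyanate-1, from seeds of Moringa oleifera, and no group received MIC-1 without LPS. Livers were taken at 16 h. The labels name 6 mice per group, of which 3 per group gave a library. The RAW264.7 line consists of mouse cells that behave like macrophages, and its 9 libraries were 3 control, 3 LPS and 3 LPS+MIC-1, with MIC-1 at 10 µM in the design text, although the sample labels repeat the mouse doses.

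Libraries are numbered here by column order within a group, because the headers carry no replicate number. From the steps between low FPKM values, the liver libraries were estimated to hold 3.44 to 8.09 M reads in Control, 9.67 to 14.7 M in LPS and 11.5 to 15.2 M in LPS+MIC-1. The lowest member value in the liver rested on an estimated 129 reads. Liver libraries differed in how close they were within a group. Libraries 1 and 3 of LPS correlated at r = 0.979 over genes, as did those of LPS+MIC-1. Library 2 correlated with its own group at 0.889 to 0.893 in LPS and 0.932 to 0.935 in LPS+MIC-1. Control libraries correlated with each other at 0.887 to 0.930, so libraries 1 and 3 of the treated groups were closer than any Control pair. FPKM values summed to 590303 to 758661 in Control, 783886 to 887241 in LPS and 1000900 to 1063780 in LPS+MIC-1, so levels below are also given as shares of a library's sum where that matters.

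RefSeq promoter windows of build GRCm38.p6, from 250 bases before the start of a gene to 50 after it, were at hand for Orm2, Orm3, Hpx, Apcs, Itih3 and Itih4. The upstream 250 bases are shown for Orm2 and Orm3, and for Itih4 and Itih3. Each pair lies side by side in the genome, and its members differed in the size of their rise in FPKM. Capitals mark matches that lie whole within the bases shown, to motifs searched on both strands. For STAT factors TTCNNNGAA was searched, for C/EBP TTGCNNAA and for NF-kB GGANTTTCC. The IL-6 type II element, found at many acute-phase genes, was searched as CTGGGA. A half-site of the liver factor HNF1 was searched as GTTAAT. The TATA box, which places the start of transcription, was searched as TATAAA.
Orm2, chr4:63362199-63362448, plus strand: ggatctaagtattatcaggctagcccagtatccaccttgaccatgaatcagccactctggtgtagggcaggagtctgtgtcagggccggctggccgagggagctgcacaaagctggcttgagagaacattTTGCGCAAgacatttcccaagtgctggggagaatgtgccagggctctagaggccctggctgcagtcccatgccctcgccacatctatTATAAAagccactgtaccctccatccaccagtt
Orm3, chr4:63355908-63356157, plus strand: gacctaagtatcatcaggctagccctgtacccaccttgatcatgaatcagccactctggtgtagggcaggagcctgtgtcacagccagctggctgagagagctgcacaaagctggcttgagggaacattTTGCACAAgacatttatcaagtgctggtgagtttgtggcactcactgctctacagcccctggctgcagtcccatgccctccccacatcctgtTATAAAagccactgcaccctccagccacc
Itih4, chr14:30886226-30886475, plus strand: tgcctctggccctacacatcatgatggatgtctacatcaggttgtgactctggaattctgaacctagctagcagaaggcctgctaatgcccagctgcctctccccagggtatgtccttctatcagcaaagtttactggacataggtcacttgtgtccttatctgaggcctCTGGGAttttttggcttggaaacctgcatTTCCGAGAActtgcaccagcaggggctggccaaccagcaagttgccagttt
Itih3, chr14:30923588-30923837, minus strand: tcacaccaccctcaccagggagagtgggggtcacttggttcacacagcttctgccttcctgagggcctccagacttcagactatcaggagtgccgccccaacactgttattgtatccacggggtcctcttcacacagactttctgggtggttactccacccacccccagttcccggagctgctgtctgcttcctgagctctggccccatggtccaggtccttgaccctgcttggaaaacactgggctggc
Orm2 and Orm3 windows were 86.6% identical over their full 300 bases. Both held a C/EBP match at nearly the same place, 120 bases before the start in Orm2 and 121 before it in Orm3, followed by a TATAAA. The Orm2 match reads the same on both strands. Outside the bases shown, the Orm3 window also held an IL-6 type II element just after the start, on the other strand, and the Orm2 window held none. Itih4 held a STAT match and an IL-6 type II element within 80 bases before its start, and a TATAAA on the other strand that spans the start, while the 250 bases of Itih3 held no match and its window had only a TATAAA just after the start.

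Over the 6 windows, C/EBP matches were found in 3 (Orm2, Orm3 and Hpx) against 10.8% of all 32851 promoters. The IL-6 type II element was in 3 (Orm3, Apcs and Itih4) against 31.8%, STAT in 2 (Apcs and Itih4) against 8.30%, and TATAAA in 4 against 13.6%. Of these 4, only Orm2 and Orm3 held TATAAA before the start on the gene strand. Because the Orm2 and Orm3 windows are 86.6% identical, their shared C/EBP and TATAAA matches are not independent. NF-kB and HNF1 letters occurred in 0 of the 6 windows, against 1.25% and 7.10% of all promoters. A match describes letters in a window and not a bound factor.

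To ask what LPS did to the liver, LPS was compared with Control. All 10 genes rose. Log2FC on the log2(FPKM + 0.5) scale ran from 1.75 for Itih3 to 5.18 for Orm2, with a median of 3.46 against 0.15 over all genes tested. Of all 10147 genes tested, 13.4% were called higher, at an adjusted P-value < 0.05 and Log2FC > 1. No LPS library fell into the range of the controls for any of the 10, an arrangement found in 24.2% of all genes. A change in the number of cells of a type and a change in RNA per cell cannot be told apart in these tissue libraries.

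**Figure D1:**
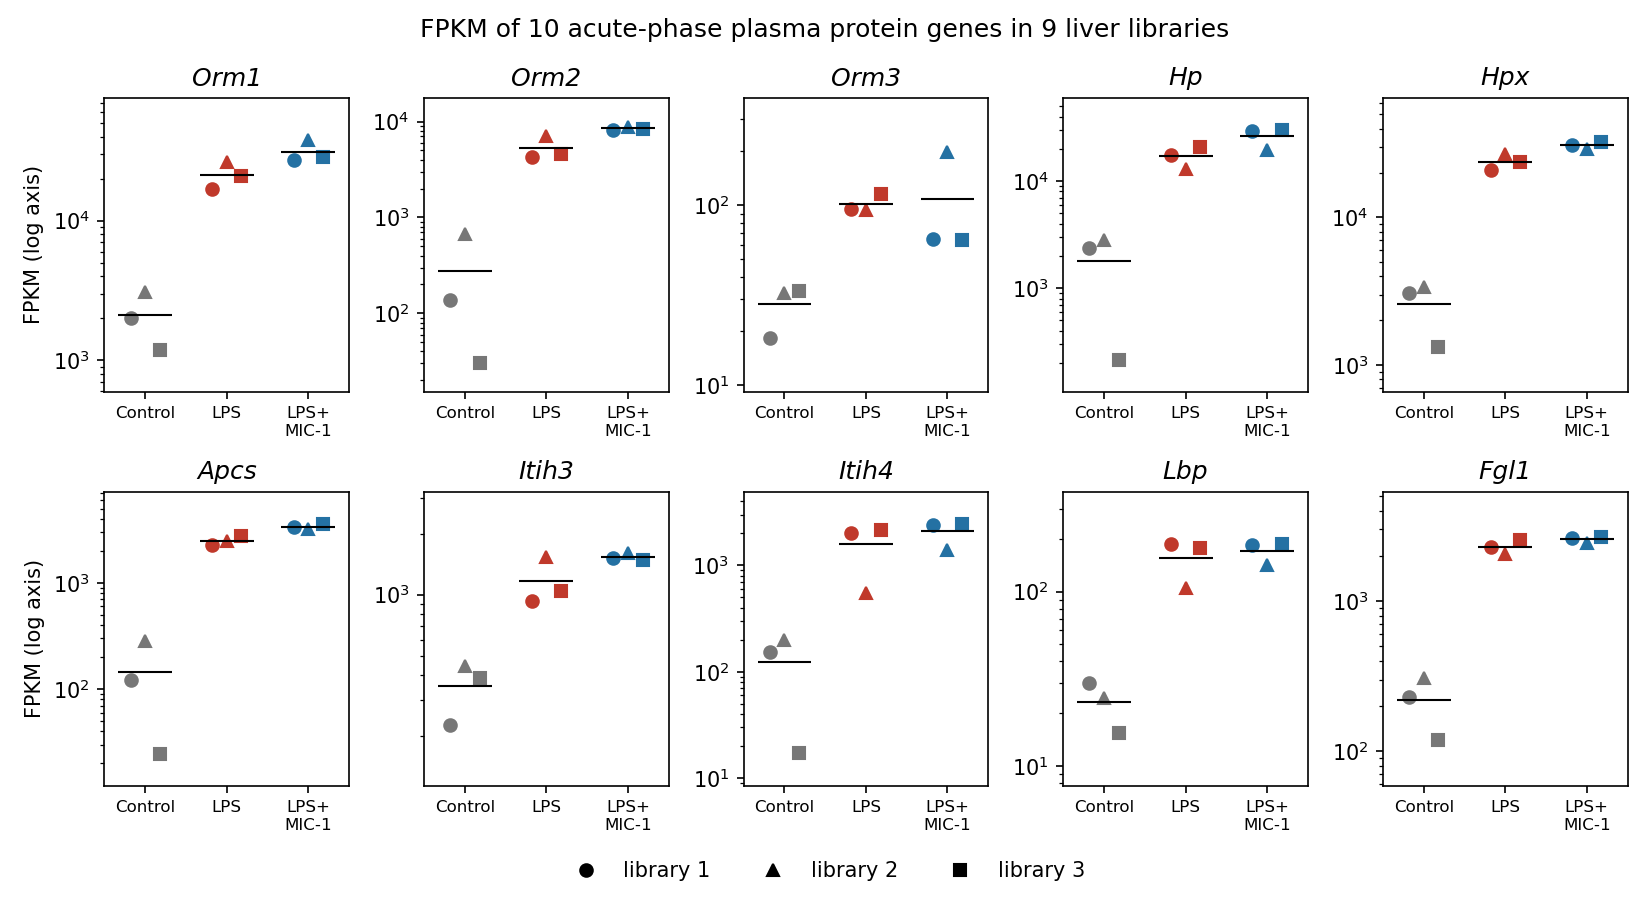
FPKM on a log axis for each gene in the 9 liver libraries, by group, with marker shapes for library number and a line at the group mean. The LPS and LPS+MIC-1 libraries lie above every Control library for all 10 genes, and Control library 3 is the lowest of its group for 8 of them.

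The heme and haemoglobin binders were among the 3 most abundant members, with Orm1. Haptoglobin (Hp) captures free haemoglobin and hemopexin (Hpx) captures free heme. Hpx was at 3093, 3395 and 1313 FPKM in the controls and at 21124, 27085 and 23679 FPKM with LPS, a 9.94-fold rise (Log2FC 3.31 ± 0.37 (SE), adjusted P-value 0.00108). Hp was at 2366, 2790 and 216 FPKM in the controls and at 17573, 13030 and 20582 FPKM with LPS (Log2FC 3.90 ± 0.86 (SE), adjusted P-value 0.0120). Without Control library 3, where Hp was 0.0838 times the mean of the other controls, its Log2FC was 2.71.

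Orm1, Orm2 and Orm3 encode alpha-1-acid glycoproteins, plasma carriers of lipids and drugs. They form a cluster on chromosome 4 in mm9, Orm1 at 63005594 to 63009197, Orm3 at 63017196 to 63020545 and Orm2 at 63023483 to 63026912, on the plus strand. Their messages are alike: 27.5% of the 31-base words of Orm1, 32.2% of those of Orm2 and 9.42% of those of Orm3 also occur in another Orm transcript, so that the split between the 3 is less certain than their sum. The sum was 2166, 3794 and 1253 FPKM in Control and 21120, 33316 and 25720 FPKM with LPS, a 12.1-fold rise in which the groups did not overlap. With 3 against 3 libraries the exact two-sided permutation test on the log2 sum cannot go below p = 0.1, the value it gave. Leaving out Control library 2, the highest control, moved the log2 difference from 3.59 to 3.99, and leaving out Control library 3 moved it to 3.20.

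As split by the pseudoalignment, the 3 copies rose by different amounts. Orm1, the largest, was at 2010, 3098 and 1189 FPKM in Control and at 16781, 26240 and 21012 FPKM with LPS (Log2FC 3.43 ± 0.38 (SE), adjusted P-value 0.00103). Orm2 went from 138, 663 and 30.4 FPKM to 4244, 6982 and 4592 FPKM, 36.3-fold (Log2FC 5.18 ± 0.90 (SE), adjusted P-value 0.00558). Its controls were spread 21.9-fold, so the size of its rise leans on 1 library: its Log2FC was 4.08 without Control library 3 and 6.30 without Control library 2. Orm3, the smallest, was at 18.4, 32.7 and 33.4 FPKM in Control and at 95.2, 93.9 and 116 FPKM with LPS (Log2FC 1.87 ± 0.44 (SE), adjusted P-value 0.0144). Orm3 was 0.848, 0.863 and 2.67% of the 3-gene sum in the controls and 0.282 to 0.451% with LPS, while Orm2 held 2.42 to 17.5% of it in Control and 17.9 to 21.0% with LPS. With Orm3 so small a part of the sum, a few misassigned reads of the other copies could alter its value, which was not tested.

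**Figure D2:**
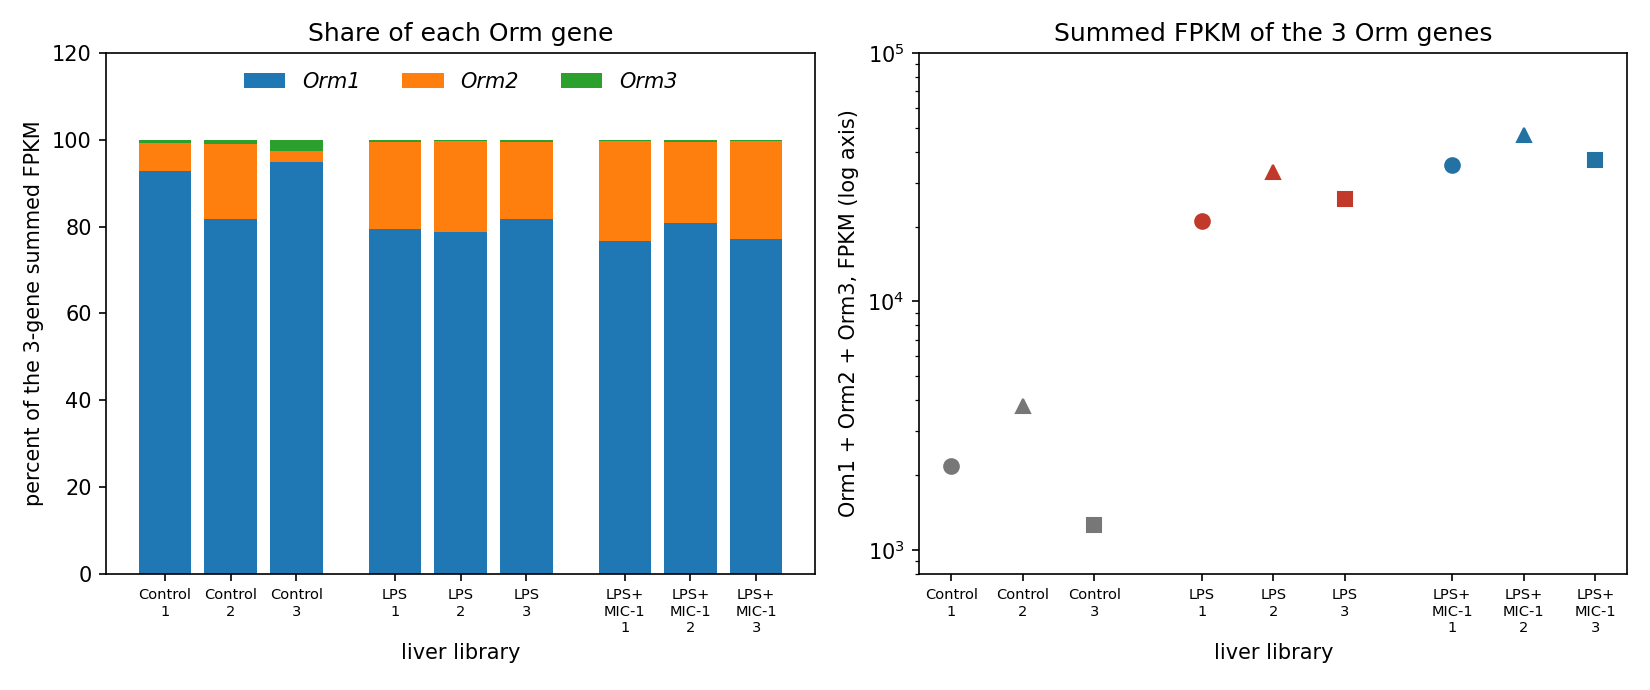
Left, percent of the summed FPKM of Orm1, Orm2 and Orm3 that each holds in the 9 liver libraries, and right, that sum on a log axis. Orm2 makes up 17.9 to 23.2% in every LPS and LPS+MIC-1 library, and the sums of both treated groups lie above the 1253 to 3794 FPKM of Control. The sums of LPS and LPS+MIC-1 are apart in FPKM but overlap as shares of the library sum.

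Apcs, Lbp and Fgl1 meet other molecules. Apcs encodes serum amyloid P component, a pentraxin and the major acute-phase pentraxin of mice. It was at 121, 284 and 24.8 FPKM in Control and at 2244, 2492 and 2735 FPKM with LPS (Log2FC 4.70 ± 0.72 (SE), adjusted P-value 0.00379). The LPS libraries showed little spread, but the controls were spread 11.5-fold. With 1 library left out, the Apcs Log2FC ranged from 3.74 to 5.49. Lbp encodes the LPS-binding protein that hands LPS to CD14. It went from 29.9, 24.6 and 15.4 FPKM to 187, 105 and 178 FPKM (Log2FC 2.73 ± 0.31 (SE), adjusted P-value 0.00112). Fgl1 is a fibrinogen-like hepatokine and a ligand of LAG3, and it had the smallest adjusted P-value of the members. It was at 228.6, 308.3 and 118.0 FPKM in Control and at 2290, 2060 and 2565 FPKM with LPS (Log2FC 3.50 ± 0.33 (SE), adjusted P-value 0.000531).

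Itih3 and Itih4 encode heavy chains of the inter-alpha-trypsin inhibitor family, and Itih3 product is joined to bikunin. They lie on chromosome 14 of mm9, Itih4 at 31699662 to 31715167 on the plus strand and Itih3 at 31721759 to 31736946 on the minus strand. Itih3 was at 228, 443 and 389 FPKM in Control and at 935, 1528 and 1040 FPKM with LPS (Log2FC 1.75 ± 0.30 (SE), adjusted P-value 0.00531). Itih4 was at 154, 198 and 17.1 FPKM in Control and at 2034, 550 and 2135 FPKM with LPS (Log2FC 4.04 ± 0.91 (SE), adjusted P-value 0.0127). Library 2 of LPS held 0.264 times the mean of libraries 1 and 3 for Itih4. Its call was lost without LPS library 1 (adjusted P-value 0.0501) or library 3 (adjusted P-value 0.0546), and the call of Orm3 without LPS library 3 (adjusted P-value 0.0585). When the close libraries 1 and 3 were averaged as 1 sample each, 7 of 10 members were called, with Orm3, Hp and Itih4 past the fold but at adjusted P-values of 0.0694, 0.0744 and 0.0825.

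Control libraries also differed among themselves. Control library 3 was the lowest for 8 of 10 members and Control library 2 the highest for 8. Hnf4a, a hepatocyte transcription factor, was at 3.53 FPKM in Control library 3 against 52.9 and 56.6 FPKM in the other controls, and its part in these values was not tested. Without Control library 3, all 10 stayed called, with Log2FC of 1.84 to 4.08, among them 3.74 for Apcs and 2.93 for Itih4.

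The rise made these genes a large part of the liver message. Together the 10 held 1.11, 1.801 and 0.567% of the summed FPKM of the control libraries. LPS libraries held 8.61, 9.34 and 8.86% in them, and LPS+MIC-1 libraries 10.3, 10.4 and 10.3%. In the controls Hpx, Orm1 and Hp, in that order of mean FPKM, stood above Itih3, and each overlapped its neighbour. With LPS the order was Hpx, Orm1, Hp, Orm2, Apcs, Fgl1, Itih4, Itih3, Lbp and Orm3, with gaps beyond the spread below Hp, below Orm2 and below Itih3. Hpx ranked 3 to 4 among all genes in the LPS libraries and 26 to 56 in the controls.

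**Figure D3:**
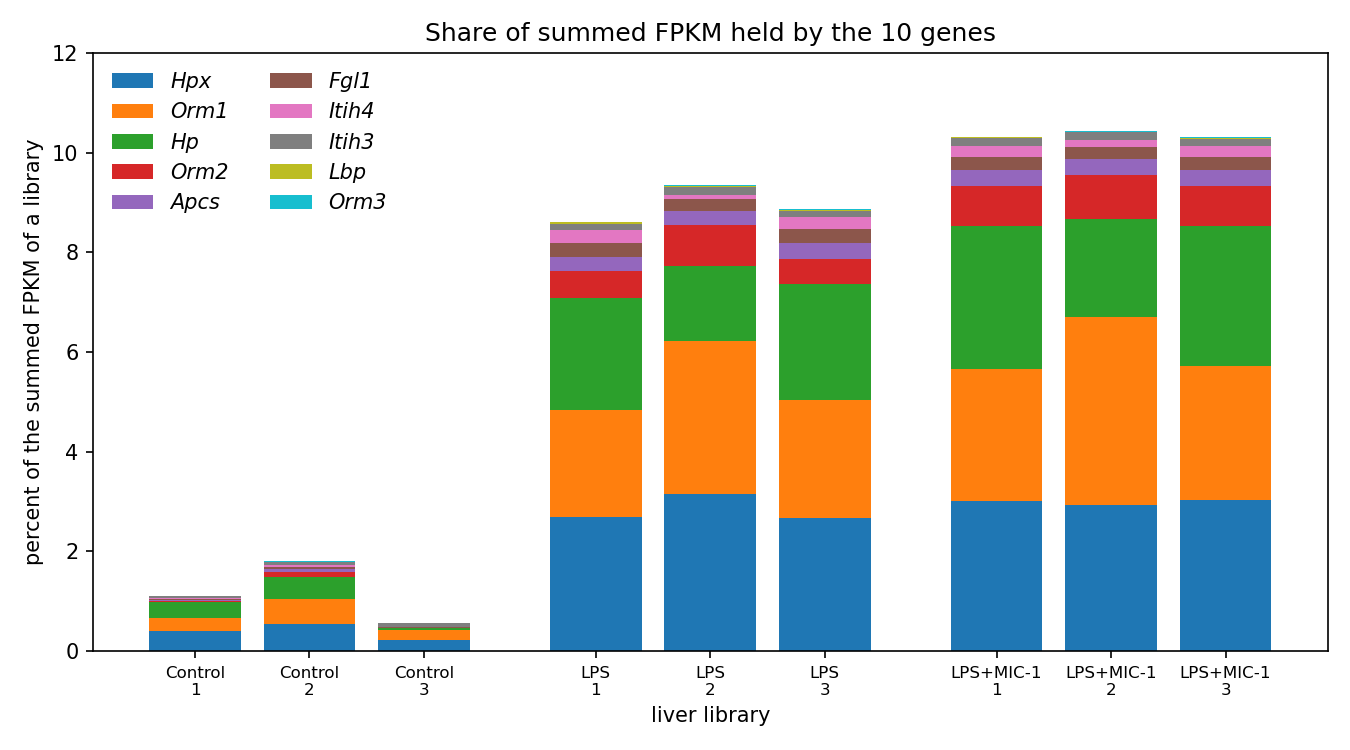
Percent of the summed FPKM of each liver library held by each of the 10 genes, stacked. Controls hold 0.567 to 1.801%, LPS libraries 8.61 to 9.34% and LPS+MIC-1 libraries 10.3 to 10.4%.

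Next, LPS+MIC-1 was compared with LPS to ask whether MIC-1 altered the response. No member passed the test, and neither did any other gene: 0% of genes were called by limma, and at an unadjusted p below 0.05 with the same fold 100 genes were (0.986%), with 0 members. In values, 9 of 10 had a positive Log2FC (7 of 10 with all libraries at the same FPKM sum), with a median of 0.44 against -0.01 over all genes (0.14 against -0.26 at the same sum). Log2FC was 0.56 for Orm1 (95% interval -0.31 to 1.42), 0.72 for Orm2 (-1.34 to 2.78), 0.37 for Hpx (-0.48 to 1.22) and 0.44 for Apcs (-1.20 to 2.09), all at an adjusted P-value of 0.997. Each of these intervals includes both 0 and a Log2FC above 1, so neither a rise nor equality is shown.

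Libraries of the 2 groups were apart for 4 of 10 members, all with LPS+MIC-1 above, an arrangement found in 5.1% of all genes. Orm1 was at 27229, 37765 and 28619 FPKM, Orm2 at 8251, 8793 and 8399 FPKM, Hpx at 30891, 29370 and 32342 FPKM and Apcs at 3355, 3182 and 3594 FPKM with LPS+MIC-1. The FPKM sums of the same libraries were higher too, and once all libraries were set to the same sum, only Apcs was apart, while 0.995% of genes were. Its share was 0.286 to 0.308% of the sum with LPS and 0.318 to 0.338% with LPS+MIC-1. The summed Orm genes stood at 35546, 46756 and 37082 FPKM, higher than LPS by 0.59 on the log2 scale, with an exact two-sided permutation p of 0.1, the smallest possible. As a share of the library sum they held 2.69, 3.88 and 2.90% in LPS and 3.47, 4.67 and 3.49% in LPS+MIC-1, where the groups overlap, and at the same sum the log2 difference was 0.30 with an exact permutation p of 0.3.

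Hp was at 29252, 19617 and 29818 FPKM, Itih4 at 2420, 1397 and 2463 FPKM and Fgl1 at 2614, 2451 and 2676 FPKM with LPS+MIC-1. Each overlapped the LPS libraries. Hp and Itih4 were lower in library 2 than in libraries 1 and 3 in both groups. Itih3 was at 1511, 1613 and 1485 FPKM and Lbp at 185, 143 and 187 FPKM, also within reach of LPS. Orm3 was at 65.2, 197 and 64.0 FPKM, with library 2 at 3.06 times the mean of the others, and its Log2FC of -0.11 became positive without library 1 or library 3.

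Both treated groups rest on the same controls, so LPS+MIC-1 against Control repeats much of the first comparison and the values are given side by side. All 10 were called higher again, where 13.8% of genes were, and no LPS+MIC-1 library reached down into the control range for any of them, as in 30.5% of genes. Log2FC was 5.90 for Orm2 beside 5.18 for LPS, 5.14 for Apcs beside 4.70, 4.52 for Hp beside 3.90 and 4.64 for Itih4 beside 4.04. Smaller were Itih3 with 2.17 beside 1.75 and Orm3 with 1.77 beside 1.87. The median Log2FC of the 10 was 3.83 beside 3.46 for LPS. With all libraries at the same sum it was 3.18 beside 3.10, and Orm3 was no longer called in LPS+MIC-1 against Control, with a Log2FC of 1.12.

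**Figure D4:**
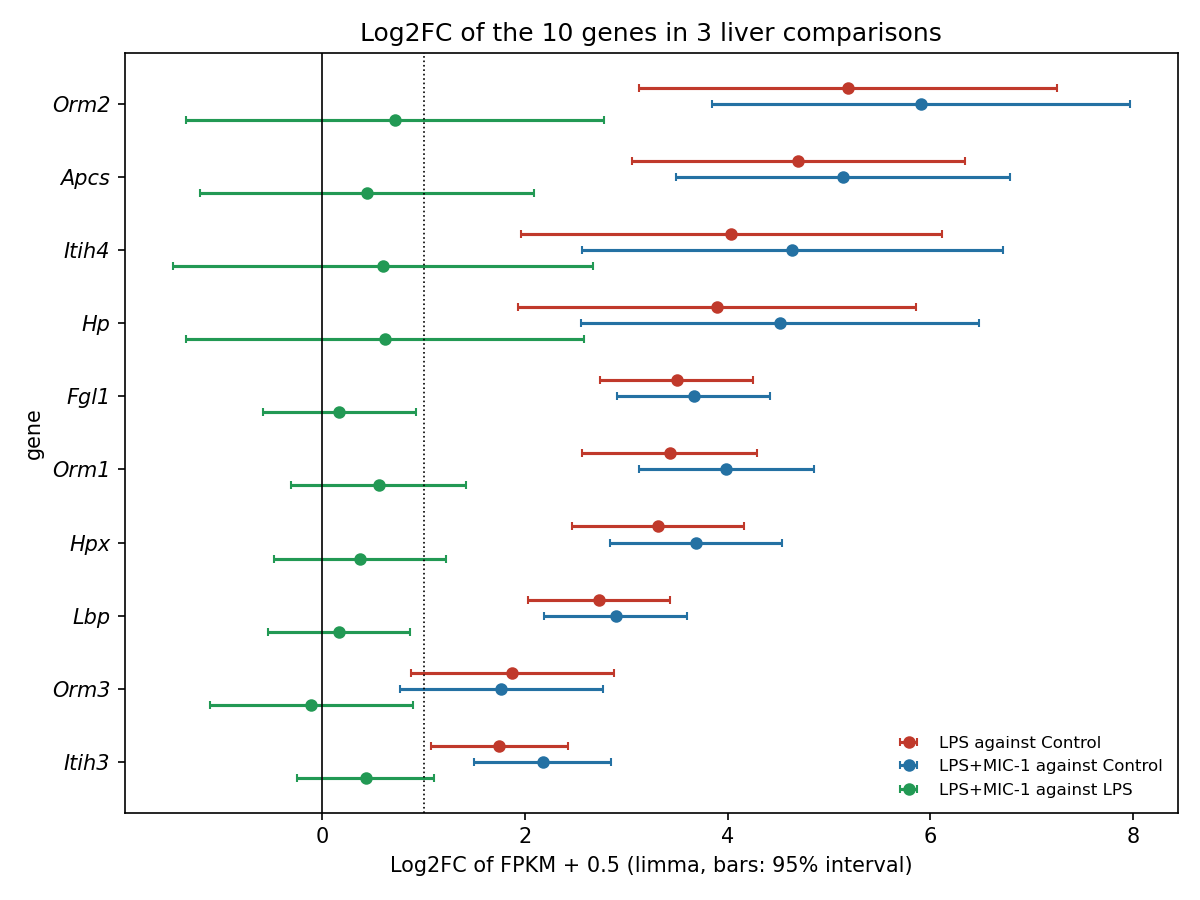
Log2FC with its 95% interval for the 10 genes in the 3 liver comparisons; the dotted line marks a Log2FC of 1. Intervals against Control lie above 0 for all 10 genes, and those of LPS+MIC-1 against LPS all include 0.

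Related lists of genes give the setting. These lists, like the members, were chosen with results of these data known. Of 20 other positive acute-phase genes, 18 rose and 1 fell with LPS, with a median Log2FC of 2.93. Examples were Saa3 (6.23), Lcn2 (6.21), Saa2 (6.05) and Saa1 (6.00); Saa1 and Saa2 are near-identical, so their split is uncertain. Hamp, the iron hormone hepcidin, fell by 1.87 on the log2 scale and Mbl2 was at 0.27 without a call. Of 13 negative acute-phase genes, 1 rose (Trf, transferrin, 1.63), 1 fell (Serpina6, corticosteroid-binding globulin, -1.52) and 11 did not pass, albumin (Alb) at -0.25 and transthyretin (Ttr) at -0.84 among them.

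Of 21 genes of cytokine and transcription control, 17 were tested, 7 rose and 2 fell. Cebpd, a C/EBP factor, rose by 3.03, Il1b by 2.52, Socs3, an inhibitor of STAT signalling, by 2.51 and the IL-1 receptor Il1r1 by 2.32 on the log2 scale. Lifr and Il1rap fell by 1.65 and 1.41. Il6, Tnf, Cebpa and Nr3c1 stayed under the filter. Of 13 tested partners and receptors of the member proteins, 5 rose and 1 fell. Cd14, to which LBP passes LPS, rose by 5.38, Hmox1, which breaks down heme, by 2.54, Myd88 by 1.57 and Ambp, the bikunin precursor, by 1.38 on the log2 scale. Cd163, the receptor for haptoglobin bound to haemoglobin, fell by 1.37.

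**Figure D5:**
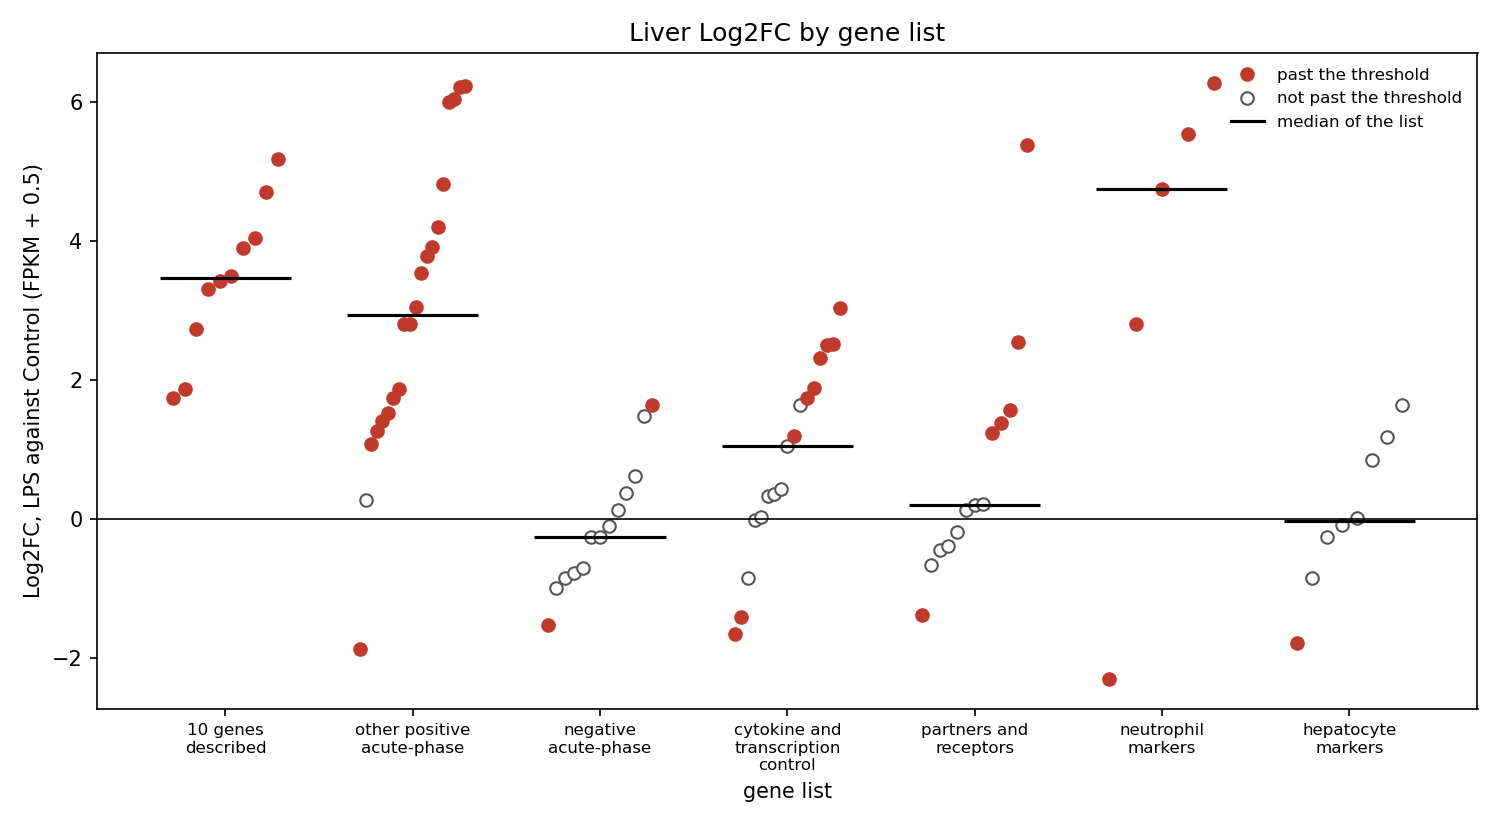
Liver Log2FC of LPS against Control for each tested gene of 7 lists, filled where past the threshold, with a line at the median. All 10 described genes are filled, with a median of 3.46, as are 19 of the 20 other positive acute-phase genes, 18 of them above 0, while the median of negative acute-phase genes is -0.25.

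Neutrophil markers moved with LPS: of 5 tested, 4 rose (S100a9, S100a8, Retnlg and Camp) and Cxcr2 fell, and the summed FPKM of 7 markers in the table lay between 35.6 and 51.8 for Control libraries, between 318 and 394 for LPS ones and between 179 and 438 after LPS+MIC-1, with Mpo at 0 in all 3 controls. Hepatocyte markers (8 of 8 above 0 in each library) summed to 26555 to 57616 FPKM (Control), 29651 to 30200 FPKM (LPS) and 24142 to 38829 FPKM (LPS+MIC-1), and of 8, 0 rose and 1 (Cps1) fell with LPS. Kupffer cell and macrophage markers summed to 32.7 to 58.3, 42.7 to 62.7 and 56.0 to 103 FPKM in the same order of groups, and of 6 tested with LPS, Marco rose (Log2FC 3.01) and Clec4f (-2.11) and Vsig4 (-1.47) fell. Liver endothelium markers summed to 42.7 to 48.8, 33.2 to 45.2 and 42.6 to 47.4 FPKM; of 6 tested, Pecam1 (2.04) and Lyve1 (1.52) rose and Clec4g (-3.32) and Kdr (-1.37) fell. Stellate cell and cholangiocyte markers summed to 25.06 to 27.96, 29.39 to 39.23 and 28.03 to 39.47 FPKM; of 6 tested, Sox9 rose (1.51). Their part in the results was not tested. Mtrnr2l, a gene resembling mitochondrial ribosomal RNA, was at 37333 to 58367 FPKM in Control, and at 29764 and 21573 FPKM in library 2 of LPS and of LPS+MIC-1, against 4130 to 8726 FPKM in the other treated libraries. Its part was not tested either. With both of these libraries 2 left out, the same test called 10 of 10 members against Control in each treated group, where 19.2% (LPS) and 16% (LPS+MIC-1) of all genes were called higher. Between the treated groups it called 0 of 10 members and 303 genes in all (2.99%). Each treated group then held only its close libraries 1 and 3, taken as independent, so these counts may be too high.

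Genes that followed the members most closely over the 9 liver libraries, by Pearson r between log2(FPKM + 0.5) and the mean z-scored profile of the members, were Tor3a (r = 0.995), Serpina3n (0.990), Moxd1 (0.990), Slc37a1 (0.990) and Scara5 (0.988). Serpina3n, an acute-phase protease inhibitor, averaged 339 FPKM over the controls, 7664 FPKM after LPS and 6930 FPKM after LPS+MIC-1. Scara5, a ferritin receptor, had a mean of 19.3 FPKM with LPS and 21.9 FPKM with LPS+MIC-1. Among the members themselves r ran from 0.686 (Orm3 with Itih4) to 0.995 (Orm2 with Apcs). All of these share the 9 libraries and their group means, and serve as description.

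In RAW264.7 macrophages the members were low. Orm1, Hp and Hpx were tested, with 0 called in LPS against Control (0% of 9905 genes), in LPS+MIC-1 against LPS (3.87%) and in LPS+MIC-1 against Control (5.59%). Without LPS library 2, described next, 34.2, 23.3 and 15.7% of genes were called in these comparisons, and still 0 of the 3 members. The paper used 2 LPS replicates for its macrophage analysis and does not name the one left out, so the fit of all libraries differs from it. Hp was at 10.6, 18.2 and 10.1 FPKM in the control cultures and at 7.49, 17.2 and 0 FPKM in the LPS cultures. After LPS+MIC-1 it was at 1.87, 3.29 and 2.23 FPKM, where all 3 lay below every control, as in 34.9% of genes (Log2FC -2.17 ± 1.12 (SE), adjusted P-value 0.193). The SE is from the fit of all 3 groups, which shares 1 spread with the LPS cultures. With only the 2 groups fitted by limma, Hp was called (adjusted P-value 0.000714), as were 1541 genes in all. Without LPS library 3 Hp was called too (adjusted P-value 0.00884), with 271 genes higher and 203 lower. It is listed at 0 in LPS library 3. LPS library 2 stood apart, at r = 0.860 and 0.862 with its group, and near the controls; without it the Hp Log2FC of LPS against Control moved from -1.66 to -2.71 (adjusted P-value 0.0357, against a threshold of 0.01). Orm1 was at 2.30, 2.94 and 0.56 FPKM in Control and 5.72, 3.54 and 3.63 FPKM with LPS (Log2FC 1.11, adjusted P-value 0.0822, and 1.22 with 0.0487 without LPS library 2). The other 7 genes reached at most 2.24 FPKM (Orm2, LPS library 1), and Itih4 was at 0 in all 3 controls. Tables of the 2 systems were normalized separately and are not compared by a test.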

How the data were processed

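RNA from 9 liver and 9 RAW264.7 libraries was sequenced at BGI. The authors pseudoaligned reads to RefSeq transcripts of mm9 with kallisto 0.45.0, used tximport for gene-level values and deposited FPKM, computed with DESeq2 1.20.0. Their comparison tables (fold changes and p-values) were not used. All columns were matched to a group by name; tables were analysed separately.

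The 10 members, the lists and the alternatives were chosen with earlier results of these data known. Genes with a mean FPKM above 1 over 9 libraries were kept, and log2(FPKM + 0.5) was fitted with limma 3.58.1 in R 4.3.3 (3 groups in 1 fit, eBayes with trend, Benjamini-Hochberg over all genes tested), and called at adjusted p below 0.05 in liver or 0.01 in macrophages with absolute Log2FC above 1; the liver threshold of the paper is read as adjusted. The named list members are up to 4 per list and direction with the largest Log2FC past the threshold. Fold changes on the log2(FPKM + 0.5) scale understate those of low genes. Read depth was estimated from FPKM steps over genes with an annotated length, so it is approximate, and p-values measure the spread between libraries. The limma test was checked on simulated data with independent libraries. That check does not cover libraries as close as liver libraries 1 and 3 of the treated groups.

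Promoters are RefSeq windows of GRCm38.p6; gene positions and transcripts are GENCODE vM1 on mm9. Python 3.11.15 with pandas 2.3.3, numpy 2.4.6, scipy 1.17.1 and matplotlib 3.10.9 was used.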

Additional observations from a re-analysis of the deposited data

Results flagged for a closer look

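In LPS+MIC-1 against Control, Hp was above every control in all 3 liver libraries, where it was called, and below every control in all 3 macrophage libraries, with 3.287 FPKM as the highest. The macrophage value did not pass the main test (limma, all groups in 1 fit, Log2FC -2.17 ± 1.12 (SE), adjusted P-value 0.193), and 34.9% of macrophage genes had all 3 libraries below the controls. It was called by limma with only the 2 groups fitted (adjusted P-value 0.000714, 1541 genes called in all) and without LPS library 3 (adjusted P-value 0.00884). The difference between liver and macrophages was not tested, because the tables were normalized separately. Groups of 3 libraries were too small for a check of single outliers.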

How the results depend on the processing

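No paired analysis was possible because the columns of the deposited tables carry no replicate number. In liver, 10 of 10 members were called against Control under all alternatives except the following. At the same FPKM sum LPS+MIC-1 against Control lost Orm3 (9). Single libraries left out gave 8 to 10 in LPS against Control, with 9 without LPS library 1 and 8 without LPS library 3. Averaging the close libraries (chosen after seeing the data) gave 7 in LPS against Control. With single libraries left out, LPS+MIC-1 against Control gave 10 and the treated groups 0. For all genes in LPS against Control the count of 2493 became 628 with close libraries averaged and 1227 to 3510 with 1 library left out (1227 without LPS library 3, 1472 without LPS library 1 and 1655 without Control library 3); for LPS+MIC-1 against Control 2560 became 1352 and 1749 to 3111. Between treated groups 0 became 1 at a pseudocount of 1, 2 without the filter, 100 at unadjusted p and 1 without trend. With 1 library left out it became 0 to 35 (35 without LPS library 2). Without both libraries 2 it became 303, in an alternative chosen after seeing the data that keeps only the close libraries of each treated group. Rescaling to the same sum moved the median of all liver genes from 0.15 to -0.18 (LPS) and from 0.15 to -0.43 (LPS+MIC-1) against Control, and the higher and lower calls from 1356 and 1137 to 797 and 1851, and from 1396 and 1164 to 535 and 2584.

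For LPS+MIC-1 against LPS the direction turned, with no call, in Orm3 (0.19 with close libraries averaged, 0.15 without LPS+MIC-1 library 1, 0.17 without library 3; -0.6428 to 0.1661 over single libraries left out), Itih4 (-0.03991 without LPS library 2; up to 0.9378), Lbp (-0.13 at the same sum, -0.10 without LPS library 2; up to 0.3139) and Fgl1 (-0.12 at the same sum). The log2 difference of the Orm sum ranged over 3.20 to 3.99 (LPS against Control), 3.78 to 4.58 (LPS+MIC-1 against Control) and 0.43 to 0.76 (LPS+MIC-1 against LPS) with 1 library left out, and the share of summed FPKM over 0.836 to 1.45% in Control, 8.74 to 9.10% in LPS and 10.3 to 10.4% in LPS+MIC-1.

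In macrophages 0 members became 1 (Orm1) at unadjusted p in LPS against Control. In LPS+MIC-1 against Control they became 1 (Hp) in a fit of only the 2 groups, and 0 to 1 with 1 library left out (Hp, without LPS library 3). Counts of all genes went from 0 to 1901 at unadjusted p and 0 to 3386 with 1 library left out (LPS against Control), from 383 to 617 without a minimum fold, 1131 at unadjusted p, 5 in a fit of 2 groups and 109 to 2310 with 1 left out (LPS+MIC-1 against LPS), and from 554 to 866, 1480, 1541 and 141 to 1560 (LPS+MIC-1 against Control), with 3386, 2310 and 1560 all without LPS library 2. At the same sum the higher and lower calls went from 204 and 179 to 295 and 48, and from 324 and 230 to 294 and 83. Hp between treated groups turned to 0.08013 at a pseudocount of 0.1 and 0.54 without LPS library 2 (from -2.034 with 1 library left out). Hpx turned to -0.11 (LPS against Control) and 0.17 (LPS+MIC-1 against LPS) at the same sum, and to 0.12 without LPS library 1 (from -0.4599 with 1 library left out). The cause was not tested.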
